A study of Mus musculus with 8 samples.

Results

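Cytochrome P450 enzymes are haem proteins that insert an oxygen atom into fatty acids, sterols, steroids, retinoids, vitamin D and foreign compounds. The first number in a symbol such as Cyp2e1 gives the family and the letter the subfamily, both set by protein similarity. Most members sit in the endoplasmic reticulum and draw electrons from P450 oxidoreductase (Por), while a few, such as Cyp27a1, Cyp24a1 and Cyp11a1, sit in mitochondria and use ferredoxin (Fdx1). Liver holds the bulk of the drug-metabolising families 1 to 3, and adipose tissue is known to express Cyp1b1, Cyp4b1, Cyp2e1 and some sterol and vitamin D hydroxylases.

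The genes described here are all symbols of the count table that consist of Cyp, a family number, 1 letter and a final number, and that had 15 or more counts summed over the 8 libraries. The summed count alone chose them. For a repeated symbol the row with the most counts was taken, which concerned Cyp4a10 with its 2 rows. The table held 89 symbols of this form, and 45 of them met the minimum, out of 18000 symbols of any kind that did. Of the other 44, 25 had no count in any library and 19 had 1 to 14 counts. Just inside the minimum lay Cyp1a1 with 17 counts and Cyp2b23 and Cyp2d11 with 18 each, and just outside it lay Cyp2w1 with 10, Cyp2b13 with 9 and Cyp4a31 with 8.

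RNA was sequenced from epididymal white adipose tissue, the fat pad beside the epididymis, of mice on a high-fat diet. One group of 4 libraries was labelled wild type (WT; replicates 1, 2, 3 and 5) and the other 4 carried a knock-in in which serine 273 of PPAR-gamma is replaced by alanine (S273A; replicates 2, 3, 4 and 6). Fat cells form under the control of PPAR-gamma, a nuclear receptor, and the series asks how gene expression in this fat depot depends on that serine. Age, diet duration and whether each library came from its own animal were not given in the sources used here. Sex was not stated as such, but the epididymis is a male organ. All p-values here speak only of variation among libraries, some of which could be technical.

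Libraries held between 14880239 and 18194889 counts. Levels are CPM, counts scaled to a common library size after TMM normalisation, and levels of different genes are compared only as CPM per kilobase of the deposited length. Summed markers of adipocytes lay between 5944 and 9190 CPM in WT and between 6926 and 8922 CPM in S273A, and all 11 were detected. In bulk tissue, fewer cells of a type and less RNA per cell cannot be told apart. S273A replicate 2 stood apart for a few genes: of 15667 rows tested, 5 were at least 3-fold above each other library there, Cyp2e1 among them, against 1 row in S273A replicate 6 and 0 in the other 6 libraries. For the tested members that this library leads, and for family 2, values without it are given as well.

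Of the P450 symbols 50.6% met the minimum, against 60.5% of all 29753 symbols in the table. Family 2 had 48 symbols and 19 members, and of its 15 Cyp2c symbols 2 were members and 8 had no count. Family 3, the main drug-metabolising family of liver, had 7 symbols, of which 5 were without a count and 1, Cyp3a13, was a member. Family 4 had 13 symbols and 9 members, 7 of them from the 9 Cyp4f symbols. Cyp7a1, the rate-limiting enzyme of bile acid synthesis in liver, had 0 counts in all 8 libraries, which allows up to 0.0221 CPM over the 8 libraries (3 counts; counting error only). Cyp19a1, the aromatase that makes oestrogens, had 4 counts in all and was no member.

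A few genes supplied most of the P450 message. By mean level over 8 libraries the order was Cyp2e1 with 57.8 CPM per kilobase, Cyp4b1 with 49.4, Cyp27a1 with 44.7 and Cyp1b1 with 27. The first 3 made up 50.8% of the summed level of the 45 members and the first 12 made up 91.2%. Cyp2d22 (17.8), Cyp20a1 (15.0), Cyp4f13 (14.8), Cyp4f18 (13.1), Cyp4f17 (8.18), Cyp2j6 (6.86), Cyp4f16 (6.45) and Cyp2u1 (4.46 CPM per kilobase) followed. The lowest mean belonged to Cyp1a1, the classic target of the aryl hydrocarbon receptor, at 0.0450 CPM per kilobase. Cyp2e1 headed this order through a single library: without S273A replicate 2 its mean was 37.1 CPM per kilobase, behind Cyp4b1 (49.5) and Cyp27a1 (42.6). It held 45.3% of the summed member level in S273A replicate 2 and between 10.5% and 16.2% in the other 7 libraries.

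**Figure D1:**
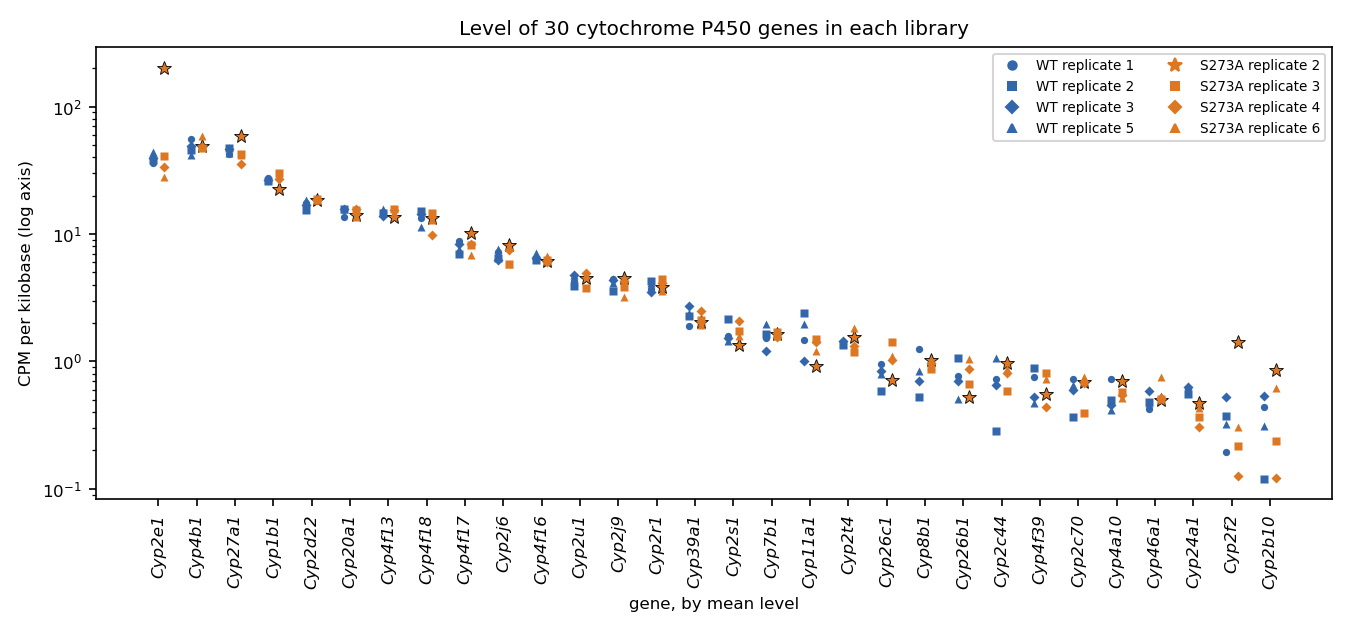
Level of the 30 tested cytochrome P450 genes in each of 8 libraries, as CPM per kilobase on a log axis, ordered by mean level; blue symbols are WT and orange symbols S273A, and the outlined star is S273A replicate 2. Levels span from Cyp2e1 at a mean of 57.8 down to Cyp2b10 at 0.403, and the star lies far above the other libraries for Cyp2e1 and Cyp2f2.

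Cyp2e1, Cyp2f2, Cyp2b10, Cyp2s1, Cyp2t4 and Cyp2r1 are tested members on mouse chromosome 7. For Cyp2s1, Cyp2t4 and Cyp2r1 the SD of log2 CPM within genotype was 0.26, 0.18 and 0.12. Cyp2e1, Cyp2f2 and Cyp2b10 had the widest spread between libraries among the tested members (values below). The sequences that follow are the RefSeq bases (GRCm38.p6, plus strand) before the start of each gene, ended where the GENCODE gene begins, which is upstream of the RefSeq start, shown because these are the members with the widest spread. Capitals mark the matches to 4 motifs searched on both strands: the nuclear receptor half-site AGGTCA, the core of the aryl hydrocarbon receptor element GCGTG, the TATA box TATAAA and the CCAAT box CCAAT. Cyp2f2 spans chr7:27119705-27119908, Cyp2e1 chr7:140763569-140763738 and Cyp2b10 chr7:25897408-25897619.
Cyp2f2: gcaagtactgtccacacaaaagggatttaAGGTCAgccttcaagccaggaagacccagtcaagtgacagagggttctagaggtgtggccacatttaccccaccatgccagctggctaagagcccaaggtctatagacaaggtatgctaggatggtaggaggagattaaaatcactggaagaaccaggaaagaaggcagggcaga
Cyp2e1: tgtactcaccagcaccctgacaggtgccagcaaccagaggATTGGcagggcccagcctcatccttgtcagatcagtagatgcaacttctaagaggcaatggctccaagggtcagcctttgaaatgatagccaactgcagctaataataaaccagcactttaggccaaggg
Cyp2b10: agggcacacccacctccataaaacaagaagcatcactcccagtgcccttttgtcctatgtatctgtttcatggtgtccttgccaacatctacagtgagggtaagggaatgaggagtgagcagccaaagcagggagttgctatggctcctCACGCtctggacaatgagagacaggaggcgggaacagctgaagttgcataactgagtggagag
The Cyp2f2 stretch held 1 half-site, the Cyp2e1 stretch 1 reversed CCAAT box and the Cyp2b10 stretch 1 reversed core of the aryl hydrocarbon receptor element. The full RefSeq windows of 250 bases, which reach on to the RefSeq start, held in addition 1 TATAAA and a second CCAAT box for Cyp2e1 and a second GCGTG core for Cyp2b10. Such full windows were at hand for 34 of the 45 members, 38 windows in all. CCAAT or its reverse was found in 20 of these 38 (52.6%) and in 33.8% of 32851 windows of all genes, and TATAAA in 8 (21.1%) against 12.4%. By gene, CCAAT was found in 17 of 34, because several overlapping windows of Cyp4f14 each held a match. AGGTCA was found in 6 (15.8%) against 14%, and GCGTG in 9 (23.7%) against 28.2%. These are letter matches in a fixed window, counted without a test.

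Family sums followed the same few genes. Family 4 summed to 92.3 ± 6.84 CPM per kilobase over the WT libraries and to 94.4 ± 5.32 over the S273A libraries (SD, n = 4 per genotype). Family 2 summed to 81.5 ± 5.11 in WT and 120 ± 86.2 in S273A, where replicate 2 stood at 249.5 and the other 3 libraries between 70.5 and 82.3. Over 8 libraries family 2 therefore averaged 101 and family 4 averaged 93.3, whereas without S273A replicate 2 family 2 averaged 79.9 and family 4 averaged 93.5, so the order of the 2 families rests on that library. Family 27, nearly all Cyp27a1, averaged 44.8 CPM per kilobase, family 1, nearly all Cyp1b1, 27.1, and family 20, which is Cyp20a1 alone, 15.0. The other 10 families with members averaged at most 2.23 each. Summed over all members, the level lay between 256 and 274 CPM per kilobase in 7 libraries and at 447 in S273A replicate 2.

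**Figure D2:**
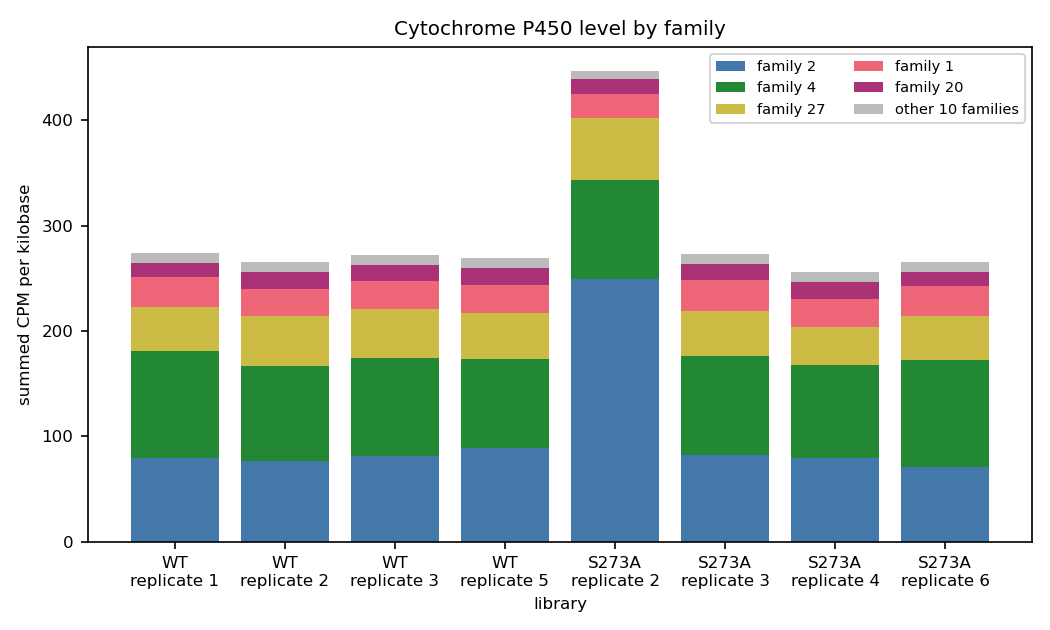
Summed level of cytochrome P450 members by family in each library, in CPM per kilobase, stacked from 0. S273A replicate 2 reaches 447 while the other 7 libraries end between 256 and 274, and its excess lies in family 2.

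In the comparison of S273A with WT, edgeR's quasi-likelihood test called 0 of the 30 members that passed the filter on low counts, at a Benjamini-Hochberg adjusted p under 0.05. It also called 0 of all 15667 rows tested (0%), and the adjusted p was 0.999914 for each of the 30. DESeq2, which gave an adjusted p for 29 of the 30 (not for Cyp2e1), and limma-voom called 0 members as well. At an unadjusted p under 0.05, edgeR, DESeq2 and limma-voom each listed 1 member, Cyp24a1, while edgeR listed 1.46% of all rows. Cyp24a1 was lower in S273A, a direction listed for 0.549% of all rows, and 0 members were listed as higher, against 0.913% of all rows. The 2 genotypes did not overlap in 1 member that was lower in S273A (Cyp24a1; 0.53% of all rows) and in 1 that was higher (Cyp2d22; 0.657% of all rows), together 2 of 30 against 1.19% of all rows. Fitted differences ran from -0.62 to 0.96 on the log2 scale, with 20 positive and 10 negative, against 50.7% positive over all rows, and without S273A replicate 2 the positive ones were 16 of 30. Their median was 0.02, against 0.00 over all rows. The 95% confidence interval lay within 1 log2 unit of 0 on both sides for 25 members and within 0.5 for 17, so the precision of these libraries left 5 members for which a 2-fold difference was inside the interval.

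**Figure D3:**
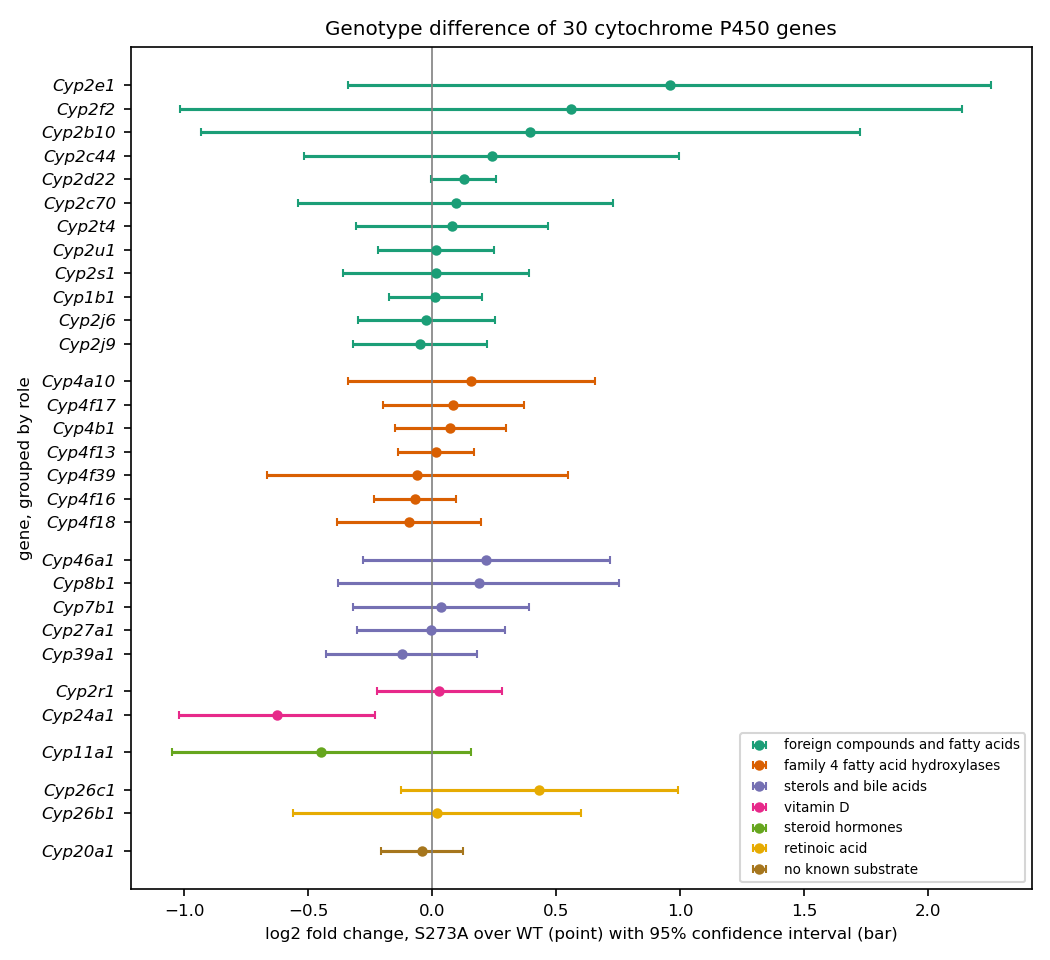
Log2 fold change of S273A over WT for the 30 tested members (points) with 95% confidence intervals (bars) from edgeR, grouped by role and coloured by group. The interval of Cyp24a1, from -1.02 to -0.23, is the one that leaves out 0, and Cyp2e1, Cyp2f2 and Cyp2b10 have the widest bars.

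The largest role group held 21 enzymes of families 1 to 3, placed under foreign compounds and fatty acids. Its 12 tested members had 10 positive estimates and a median of 0.09. Without S273A replicate 2, 7 of the 12 were positive and the median was 0.03. Cyp2e1 oxidises ethanol, acetone and fatty acids and is induced in liver by fasting and high-fat feeding. It stood at 62.3, 66.0, 68.8 and 76.0 CPM in WT replicates 1, 2, 3 and 5, and at 352, 70.6, 58.6 and 48.5 CPM in S273A replicates 2, 3, 4 and 6. S273A replicate 2 was 4.63-fold above the next library. Of the other S273A libraries, replicate 3 lay inside the WT range and replicates 4 and 6 lay below every WT library. The fitted difference was 0.96 (SE 0.58, interval -0.34 to 2.25, edgeR unadjusted p = 0.130). By limma-voom it was 0.43, and DESeq2 gave no p for this gene. Without S273A replicate 2 it was -0.20, with unadjusted p = 0.125, so its sign rests on that library. The gene lies at chr7:140763739-140774987 on the plus strand (GENCODE M21, GRCm38), with 5.31% of its 36-base words found in another gene.

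Besides Cyp2e1, the rows at least 3-fold above each other library in S273A replicate 2 were Cxcr1, Awat1, Bex1 and Cdhr2. They stood there at 18.8, 10.9, 4.57 and 2.40 CPM. Cfd (complement factor D), an adipocyte marker, and Agt (angiotensinogen), not on that list, were also the highest of the 8 libraries there. Neither reached 3-fold. Cfd stood at 497 CPM there and between 135 and 205 CPM in the other 7, and Agt at 51.7 CPM against 16.9 to 22.9. Summed adipocyte markers in that library, 8734 CPM, lay inside the range of the others, with Lep, the largest of them, at 1671 CPM. Of these 11 markers 6 (Adipoq, Pck1, Cfd, Acvr1c, Pnpla2 and Slc7a10) were at their highest of the 8 libraries there. Hepatocyte markers summed to 2.9 CPM there and to between 1.12 and 2.94 CPM in the other 7, with Fga, Fgb and Cyp7a1 at 0 in all 8. Of the 7 hepatocyte markers detected, 2 were at their highest of the 8 libraries there and 0 at their lowest. Alb (albumin), 1 of these 2, stood at 1.62 CPM there and between 0.394 and 0.889 CPM elsewhere. Epididymis markers summed to 1.62 CPM there and to at most 0.506 CPM elsewhere, with Defb20, Lcn8, Lcn9 and Crisp4 at 0 in all 8. The part of these cell types in the Cyp2e1 values was not tested.

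Cyp2f2, known for naphthalene oxidation in airway club cells, and Cyp2b10, the phenobarbital-inducible enzyme controlled by the receptor CAR in liver, were low. Cyp2f2 had 6, 12, 14 and 10 counts in WT and 46, 7, 4 and 9 in S273A, which is 0.356 to 0.958 CPM against 2.56, 0.394, 0.230 and 0.554 CPM. S273A replicate 2 was again the highest library, with the other 3 below the middle of WT. The fitted difference was 0.56 (SE 0.70, edgeR unadjusted p = 0.446) with that library and -0.70 (unadjusted p = 0.139) without it, and by limma-voom it was 0.02 over 8 libraries. A share of 13.5% of the exonic bases of Cyp2f2 lies under Gm15883 on the other strand, and the library preparation does not keep strand, so reads of the 2 genes cannot be told apart there. Cyp2b10 had 14, 4, 15 and 10 counts in WT and 29, 8, 4 and 19 in S273A. Its range within WT alone, from 0.227 to 1.03 CPM, lay inside the S273A range of 0.230 to 1.62 CPM save for the lowest library. The estimate was 0.40 (SE 0.59, unadjusted p = 0.521) and became -0.11 without S273A replicate 2 and 0.21 by limma-voom, and 15.7% of its 36-base words occur in another gene.

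Cyp2d22, the most abundant mouse gene of the drug-metabolising Cyp2d group in this tissue, was the steadiest member. It stood at 49.0, 43.1, 46.5 and 50.8 CPM in WT and at 51.7, 52.2, 51.4 and 51.3 CPM in S273A. Every S273A library lay above every WT library, though S273A replicate 6 and WT replicate 5 were nearly level. Means were 47.3 ± 3.35 CPM and 51.6 ± 0.407 CPM (SD, n = 4 each), and the fitted difference was 0.13 (SE 0.06, interval -0.01 to 0.26), with an edgeR unadjusted p of 0.059 and an adjusted p of 0.999914. The estimate stayed positive under each of 13 alternatives. Other Cyp2d members were at the detection limit: Cyp2d9, Cyp2d11, Cyp2d12 and Cyp2d26 had between 18 and 48 counts in all 8 libraries together.

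Cyp1b1 oxidises oestradiol and polycyclic hydrocarbons and is the extrahepatic member of its family. It had the highest count of any member, at 195, 184, 187 and 192 CPM in WT and 158, 211, 191 and 204 CPM in S273A. The S273A libraries lay on both sides of WT, with replicate 2 the lowest. The estimate was 0.01 (SE 0.08, interval -0.17 to 0.20, edgeR unadjusted p = 0.883). Its relative Cyp1a1 had 5 counts in WT and 12 in S273A and was not tested. Of 8 tested genes of foreign-compound sensing, 3 had positive and 5 negative estimates and 0 were called, with Ahr, the aryl hydrocarbon receptor, at 0.11 and its repressor Ahrr at -0.18.

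Cyp2j6, an arachidonic acid epoxygenase, stood at 26.1, 23.4, 22.5 and 27.4 CPM in WT and 29.3, 20.9, 26.9 and 20.7 CPM in S273A. Cyp2u1, which hydroxylates long-chain fatty acids, stood at 13.7, 12.5, 15.1 and 15.2 CPM in WT and 14.3, 12.0, 15.7 and 15.1 CPM in S273A. Both overlapped fully, with estimates of -0.02 and 0.02. Cyp2j9, a neighbour of Cyp2j6 on chromosome 4, had an estimate of -0.05 and Cyp2s1 one of 0.01. Without S273A replicate 2 the estimate was -0.12 for both Cyp2j6 and Cyp2j9. Cyp2c44, an epoxygenase of arachidonic acid, was scattered at 1.60, 0.626, 1.44 and 2.35 CPM in WT and 2.12, 1.29, 1.78 and 1.91 CPM in S273A (0.24, SE 0.34, edgeR unadjusted p = 0.495). WT covered the whole S273A range. Cyp2c70, a bile acid hydroxylase of mouse liver, stood at 1.25, 0.626, 1.03 and 1.12 CPM in WT and 1.17, 0.675, 1.15 and 1.29 CPM in S273A, an overlap with an estimate of 0.09. WT replicate 2 was the lowest library for both Cyp2c genes. Cyp2t4 had an estimate of 0.08.

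Family 4 enzymes hydroxylate the end carbons of fatty acids and eicosanoids. Its 7 tested members of 9 gave 4 positive and 3 negative estimates with a median of 0.01 (3 positive without S273A replicate 2). Cyp4b1 stood at 111, 90.6, 97.8 and 83.1 CPM in WT and 96.7, 93.7, 94.9 and 117 CPM in S273A. The highest S273A library was replicate 6, and the other 3 lay inside the WT range. The difference was 0.07 (SE 0.10, interval -0.15 to 0.30, edgeR unadjusted p = 0.484). Cyp4b1 shares 10.5% of its 36-base words with another gene.

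Among the Cyp4f genes, some of which inactivate leukotriene B4, Cyp4f13 stood at 25.4, 24.9, 23.7 and 26.7 CPM in WT and 23.3, 26.9, 26.3 and 25.2 CPM in S273A. Cyp4f18, which clears leukotriene B4 in myeloid cells, stood at 22.6, 25.9, 24.3 and 19.4 CPM in WT and 22.8, 25.1, 16.7 and 21.8 CPM in S273A. In both genes the genotypes overlapped, with estimates of 0.01 and -0.09. Cyp4f17 stood at 15.0, 11.8, 14.2 and 12.9 CPM in WT and 17.3, 13.9, 14.2 and 11.6 CPM in S273A. Cyp4f16 stood at 15.4, 14.9, 15.4 and 16.9 CPM in WT and 14.5, 14.8, 14.2 and 16.1 CPM in S273A. S273A reached beyond WT at both ends for Cyp4f17 (0.09), whereas for Cyp4f16 3 S273A libraries lay just below WT and replicate 6 inside it (-0.07, SE 0.07, edgeR unadjusted p = 0.377). Without S273A replicate 2 the estimate for Cyp4f17 was -0.02. Cyp4f16 shares 23.7% of its 36-base words with other genes, so its counts may include reads of a relative. Cyp4f39, a skin-lipid hydroxylase, stood at 1.96, 2.33, 1.37 and 1.23 CPM in WT and 1.45, 2.14, 1.15 and 1.91 CPM in S273A. These ranges overlapped almost wholly (-0.06). Cyp4a10, a target of PPAR-alpha in liver, was barely detected at 1.17 to 2.08 CPM in WT and 1.48 to 2.01 CPM in S273A (0.16), and 40.1% of its words occur in other genes.

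Cyp20a1 has no established substrate. It stood at 31.5, 36.5, 36.2 and 36.2 CPM in WT and 32.7, 35.8, 36.5 and 31.2 CPM in S273A. WT replicate 1 was the low WT library, and the genotypes overlapped (-0.04, SE 0.07, edgeR unadjusted p = 0.574).

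Among the sterol and bile acid enzymes, 5 members were all tested, with 3 positive and 2 negative estimates. Cyp2c70, described above, was counted with the foreign-compound group instead. Cyp27a1, the mitochondrial sterol hydroxylase that opens the alternative bile acid pathway and makes oxysterols in macrophages, stood at 82.4, 91.0, 89.8 and 83.6 CPM in WT. In S273A it stood at 114, 81.8, 68.7 and 80.7 CPM. S273A replicate 2 was the highest of all 8 libraries, and each of the other 3 S273A libraries was below the lowest WT library. The fitted difference was -0.01 (SE 0.13, interval -0.30 to 0.29, edgeR unadjusted p = 0.969) over 8 libraries, and -0.17 (unadjusted p = 0.046, adjusted p = 0.999386) without S273A replicate 2. Summed macrophage markers lay between 5933 and 7880 CPM in WT and 5662 and 6693 CPM in S273A, with S273A replicate 2 at 6693 and S273A replicate 4, the lowest Cyp27a1 library, at 5662. Of these 10 markers 1 had a positive and 9 a negative estimate. In S273A replicate 2 the sum was carried by Gpnmb at 2982 CPM, while 4 markers (Adgre1, Csf1r, Itgax and Clec10a) were at their lowest of the 8 libraries. Without Gpnmb the sum there was 3712 CPM, below each WT library. The part of macrophages in the Cyp27a1 values was not tested.

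Cyp7b1, which hydroxylates oxysterols, stood at 3.32, 3.53, 2.60 and 4.23 CPM in WT and 3.57, 3.66, 3.39 and 3.45 CPM in S273A. Cyp39a1, an oxysterol hydroxylase of liver, stood at 5.87, 7.11, 8.48 and 7.46 CPM in WT and 6.30, 6.52, 7.70 and 5.97 CPM in S273A. Both overlapped (0.04 and -0.12). Cyp46a1, the cholesterol hydroxylase of brain neurons, stood at 0.890, 1.02, 1.23 and 0.998 CPM in WT and 1.06, 1.07, 1.09 and 1.60 CPM in S273A. S273A replicate 6 was above the rest (0.22, SE 0.22, edgeR unadjusted p = 0.356). Cyp8b1, which directs bile acid synthesis to cholic acid, stood at 2.43, 1.02, 1.37 and 1.64 CPM in WT and 2.01, 1.69, 1.90 and 1.78 CPM in S273A, inside the WT range (0.19, unadjusted p = 0.477). Its estimate ran from 0.02 without WT replicate 2 to 0.45 without WT replicate 1. Of 7 tested genes of the oxysterol and bile acid list, 4 had positive and 3 negative estimates, with 0 called; Hsd3b7 stood at 0.17 and Nr1h2, the liver X receptor beta, at 0.03.

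Of the vitamin D hydroxylases, Cyp24a1 alone gave the smallest edgeR p among the tested members. Cyp24a1, the mitochondrial enzyme that inactivates vitamin D hormones and is a target of the vitamin D receptor, had 43, 40, 38 and 45 counts in WT replicates 1, 2, 3 and 5. In S273A replicates 2, 3, 4 and 6 it had 35, 27, 22 and 29 counts. These are 2.55, 2.27, 2.60 and 2.64 CPM against 1.95, 1.52, 1.26 and 1.78 CPM. The highest S273A library, replicate 2, was below the lowest WT library, replicate 2. Means were 2.52 ± 0.166 CPM and 1.63 ± 0.302 CPM (SD, n = 4 each), and the difference was -0.62 (SE 0.18, interval -1.02 to -0.23, edgeR unadjusted p = 0.0056, adjusted p = 0.999914), so it failed the correction over 15667 rows. The SD of its log2 CPM within a genotype, 0.19, was below the 0.24 that counting alone gives. The estimate was negative in all 14 fits, from -0.73 to -0.49. The unadjusted p was under 0.05 in 13 of them and 0.228 with replicate number as a block, and adjusted p-values ran from 0.999095 to 0.999938. The gene lies at chr2:170482708-170497145 on the minus strand (GENCODE M21, GRCm38), and 2.33% of its exonic bases lie under Pfdn4 on the other strand.

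The other steps of the pathway did not separate the genotypes. Cyp2r1, which makes the circulating form of vitamin D, was at 6.05, 6.94, 5.75 and 6.69 CPM in WT and 6.24, 7.20, 6.66 and 5.85 CPM in S273A (0.03, SE 0.11, edgeR unadjusted p = 0.809). Cyp27b1, which makes the active hormone, had 20 counts in WT and 27 in S273A, too few for the filter. In single libraries it had 6, 2, 7 and 5 counts in WT and 10, 8, 4 and 5 in S273A, overlapping. Of the 5 tested genes of the vitamin D list, 4 had positive estimates and 1 a negative one, 0 were called, and the leading ones were Lrp2, the uptake receptor megalin, at 0.28 (unadjusted p = 0.137) and Rxrb at 0.06 (unadjusted p = 0.386).

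Steroid-making members were scarce. Cyp11a1, which cuts the cholesterol side chain in the first step of steroid synthesis, stood at 2.61, 4.27, 1.78 and 3.46 CPM in WT and 1.62, 2.64, 2.53 and 2.15 CPM in S273A. WT was the more scattered group and the genotypes overlapped. The estimate was -0.45 (SE 0.27, interval -1.05 to 0.16, edgeR unadjusted p = 0.129), and it was negative in every fit. Without WT replicate 3, the lowest WT library, it was -0.62 (unadjusted p = 0.026, adjusted p = 0.999334). Without WT replicate 2, the highest, it was -0.24 (unadjusted p = 0.389), and the replicate block gave an unadjusted p = 0.460. Cyp17a1 had 11, 1, 1 and 2 counts in WT and 2 in each S273A library, and Cyp21a1 had 15 counts in WT and 21 in S273A. Markers of Leydig cells and testis summed to 12.6 to 18.4 CPM in WT and 14.2 to 17.5 CPM in S273A, mostly Star. That list includes Cyp11a1 and Cyp17a1, so its sum is not independent of these members. Hsd17b3 was at 0 in all libraries and Lhcgr had 12 counts in all. Of 8 tested genes of steroid hormone synthesis, 5 had positive and 3 negative estimates and 0 were called, led by Srd5a1 at -0.29 and Star at 0.12.

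Members of family 26 clear retinoic acid. Cyp26b1 stood at 4.09, 5.57, 3.69 and 2.70 CPM in WT and 2.79, 3.49, 4.60 and 5.48 CPM in S273A, nearly the same range (0.02, SE 0.26, edgeR unadjusted p = 0.945). Cyp26c1 stood at 1.48, 0.910, 1.30 and 1.23 CPM in WT and 1.11, 2.19, 1.61 and 1.72 CPM in S273A. Of the S273A libraries 3 lay above WT and replicate 2 inside it. The estimate for Cyp26c1 was 0.43 (SE 0.25, interval -0.13 to 0.99, unadjusted p = 0.116), and without S273A replicate 2 it was 0.58 (unadjusted p = 0.032, adjusted p = 0.999386). Without S273A replicate 3, the highest library, it was 0.27 (unadjusted p = 0.313). Cyp26a1 had 1, 2, 3 and 0 counts in WT and 2, 0, 8 and 6 in S273A, and was not tested. Of 13 tested retinoic acid genes 9 had positive and 4 negative estimates, with 0 called. Aldh1a2, a retinoic acid synthase, stood at 0.30 (unadjusted p = 0.043, adjusted p = 0.999914) and the receptor Rarb at 0.13. Aldh1a2 is also made by mesothelium, whose 10 markers all had positive estimates and summed to between 149 and 244 CPM in WT and 211 and 290 CPM in S273A. Their part in the Aldh1a2 value was not tested.

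Electron and haem supply showed no call either. Of 12 tested genes of redox partners and haem, 7 had positive and 5 negative estimates, with a median of 0.02, led by Fdx1, the mitochondrial electron carrier, at 0.19 (edgeR unadjusted p = 0.136) and Cyb5r1 at -0.08 (unadjusted p = 0.173). Of 10 tested epoxide hydrolases and eicosanoid enzymes, 5 were positive and 5 negative, and Ephx3 had the smallest p (0.53, unadjusted p = 0.025, adjusted p = 0.999914), followed by Alox15 at 0.51 (unadjusted p = 0.172). Of 5 P450 enzymes whose symbols fall outside the pattern, Cyp4a12a had 0 counts and Cyp4a12b had 1. Tbxas1, thromboxane synthase, averaged 117 ± 14.2 CPM over WT and 112 ± 18.1 CPM over S273A (-0.07; SD, n = 4 each). Cyp51, of cholesterol synthesis, averaged 46.1 ± 6.67 CPM (WT) and 44.0 ± 1.34 CPM (S273A), a difference of -0.07, and Ptgis, prostacyclin synthase, at 34.2 ± 5.17 and 39.0 ± 6.37 CPM (0.19; SD, n = 4 each). None of the 3 tested genes of that list was called.

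Of the 15 members that the filter on low counts left untested, totals ran from 17 to 56 counts, with more counts in S273A for 10 and in WT for 5. Cyp3a13, a family 3 enzyme, had 21 counts in WT and 7 in S273A. In the edgeR fit without a filter it had the smallest p of the 15, 0.030 unadjusted, with an adjusted p = 0.999095. Cyp4f14, a leukotriene B4 hydroxylase, had 20 and 36 counts, Cyp2j8 had 14 and 5, and Cyp2d26 had 14 and 4, with 8 of the WT counts of Cyp2d26 in replicate 1. None of the 15 was called in that fit.

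Spread between libraries was measured as the SD of log2 CPM within a genotype, pooled over WT and S273A. Its median over the 30 tested members was 0.21, against 0.15 over all 15667 rows. Part of this follows level, because low counts scatter more. Among rows of 10 CPM or more, 13 members had a median SD of 0.16 and 10244 rows 0.11, and below 10 CPM 17 members had 0.33 and 5423 rows 0.28. The SD exceeded what counting alone gives in 24 of 30 members. Within WT the median over the members was 0.18 and within S273A, with replicate 2 included, 0.25. These medians by genotype were not computed over all rows, so nothing particular to these genes can be read from them.

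Members differed in spread, in part with level. Save for Cyp2e1, the widest members named next had means of at most 4.05 CPM, and the tightest had 15.3 CPM or more. At like level, Cyp2e1 (mean 100 CPM) had an SD of 0.93 and Cyp4b1 (98.1 CPM) one of 0.16. Cyp2f2 (SD 0.97), Cyp2e1 (0.93) and Cyp2b10 (0.92) were the widest, followed by Cyp2c44 (0.55), Cyp11a1 (0.43), Cyp26b1 (0.42), Cyp4f39 (0.39) and Cyp2c70 (0.38). For Cyp2e1 counting alone gives 0.03, and of 4903 rows with a mean of 50 CPM or more 1 other row, the immunoglobulin entry abParts, had a larger SD. Without S273A replicate 2 the SD was 0.21 for Cyp2e1 and 0.48 for Cyp2f2. Counting gives Cyp2f2 0.39, but over all 8 libraries, so this value does not match the set without that library. For Cyp2b10 the SD without that library was 0.86. The spread of Cyp2b10 was thus present in both genotypes. Cyp2d22, Cyp4f16 and Cyp4f13 were the tightest, at 0.07, 0.08 and 0.08.

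**Figure D4:**
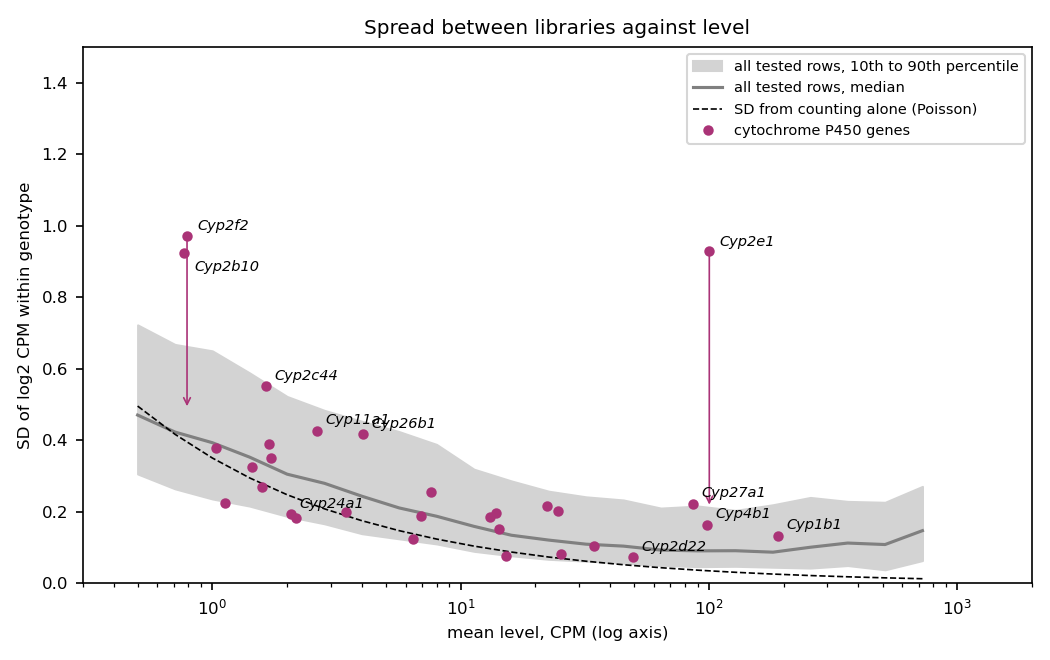
SD of log2 CPM within genotype against mean level in CPM (log axis) for the 30 tested members (points), with the median and the 10th to 90th percentile of all tested rows (line and grey band) and the SD from counting alone (dashed). Arrows show Cyp2e1 falling from 0.93 to 0.21 and Cyp2f2 from 0.97 to 0.48 when S273A replicate 2 is left out.

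The members did not share 1 library profile. S273A replicate 2 was the highest library for 7 of 30 members and the lowest for 4, and WT replicate 2 was the highest for 6 and the lowest for 6. In S273A replicate 2, Cyp2e1, Cyp2f2, Cyp2b10 and Cyp27a1 were at their highest and Cyp1b1 and Cyp11a1 at their lowest. Cyp4b1, next to Cyp2e1 in level, stood at 96.7 CPM there, in the middle of its range.

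**Figure D5:**
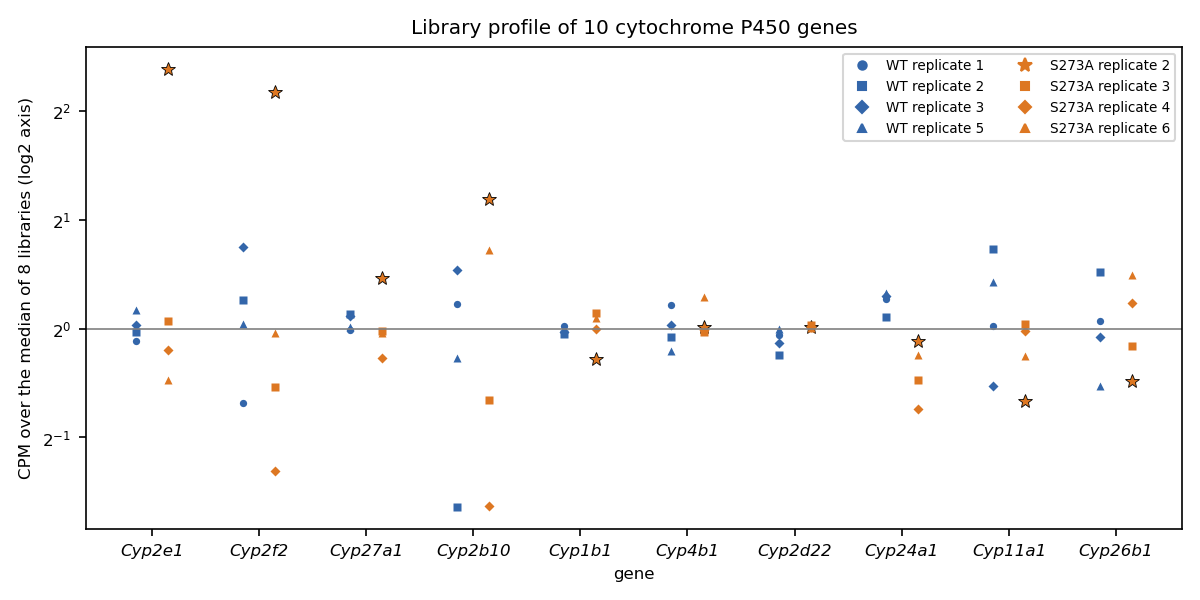
CPM of 10 cytochrome P450 genes in each library over the median of that gene's 8 libraries (log2 axis); blue symbols are WT, orange symbols S273A, and the outlined star is S273A replicate 2. The star lies highest for Cyp2e1, Cyp2f2, Cyp27a1 and Cyp2b10 and lowest for Cyp1b1 and Cyp11a1, while for Cyp24a1 all orange symbols lie below all blue ones.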

How the data were processed

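Total RNA of 8 libraries (4 WT, 4 S273A) was depleted of ribosomal RNA, made into non-directional libraries and read as 36-base pairs, per the labels' protocols. The deposited table gives raw read counts per gene row with other columns for the row's identifier and length in bases, per the file headers; the submitters' processing notes list featureCounts 1.5.2, HISAT2 2.0.5, edgeR 3.3.0, Picard 2.9.2 and the build mm10. How reads mapping to several genes were counted is not given in the sources used here.

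Rows were filtered with filterByExpr (15667 kept), scaled by TMM and tested with edgeR 4.0.16 (robust quasi-likelihood, R 4.3.3), with Benjamini-Hochberg adjustment over all rows and a threshold of 0.05. Log2 CPM used a prior count of 2. The scripts were tested on simulated data. DESeq2 1.42.0, limma-voom (limma 3.58.1), other size factors, no filter, a replicate block and fits without each library were the alternatives. Named in full are the 12 members with the highest level per kilobase, the 10 with the smallest p, the 8 with the widest spread, those whose genotypes do not overlap, and the vitamin D, sterol, steroid and retinoic acid hydroxylases; from each pathway list the 2 smallest p. Single values outside this rule were chosen after their values were seen. Among members they included Cyp3a13, Cyp4f14, Cyp2j8, Cyp2d26, Cyp2j9, Cyp2s1, Cyp2t4, Cyp4a10, Cyp1a1, Cyp2d9, Cyp2d11 and Cyp2d12. Among other genes they included Cfd, Agt, Cxcr1, Awat1, Bex1, Cdhr2, Alb, Gpnmb, Lep, Lhcgr and Tbxas1. The rule that selects the members, and the gene lists, were set with earlier results of these data known. Positions come from GENCODE M21 (GRCm38), where 44 of 45 members matched by symbol. Of the members, 13 share over 10% of their 36-base words with another gene, and 7 have exonic bases under a gene on the other strand, which a non-directional library cannot separate.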

Additional observations from a re-analysis of the deposited data

Results flagged for a closer look

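In 5 of the 60 genotype groups of tested members (8.33%), 1 library was far from the other 3 by Dixon's criterion for 4 values. Chance gives about 1 in 20 groups, and over all tested rows it was 1672 of 31334 groups (5.34%). Cyp2e1 in S273A stood at 352 CPM in replicate 2, with the other 3 between 48.5 and 70.6 CPM. Cyp2f2 in S273A stood at 2.56 CPM in the same library, with the other 3 between 0.230 and 0.554 CPM. Cyp4b1 in S273A stood at 117 CPM in replicate 6, with the other 3 between 93.7 and 96.7 CPM. Cyp46a1 in S273A stood at 1.60 CPM in replicate 6, with the other 3 between 1.06 and 1.09 CPM. Cyp20a1 in WT was low in replicate 1, at 31.5 CPM, with the other 3 between 36.2 and 36.5 CPM.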

How the results depend on the processing

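The count of members called was 0 under all 13 alternatives. The median log2 fold change, 0.02 over 30 members, was 0.075 over 45 members with no filter on low counts and ran from 0.012 to 0.074 over fits without 1 library. The median SD, 0.21, was 0.35 with no filter and ran from 0.20 to 0.23 over fits without 1 library. With the longest annotated transcript as length, family 1 averaged 37.1 CPM per kilobase in place of 27.1 and family 11 averaged 0.765 in place of 1.48. Without 1 library family 2 ran from 79.9 to 105, the low value without S273A replicate 2.

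Numbers 2 and 3 occur in both genotypes, but the correlations of their libraries' deviations, -0.08 and -0.22, and the labels give no sign that a number marks a pair. With the replicate block, which leaves 1 residual degree of freedom, 0 members were called, 0 had an unadjusted p under 0.05 (1 without the block), and the median was 0.064. Estimates that changed sign under the block were Cyp1b1 (-0.023), Cyp26b1 (-0.55), Cyp27a1 (0.098), Cyp2j6 (0.11), Cyp2j9 (0.090), Cyp2s1 (-0.24), Cyp2t4 (-0.037), Cyp2u1 (-0.068) and Cyp46a1 (-0.077).

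Of 30 members, 9 kept the sign of their estimate under all 13 alternatives, Cyp24a1, Cyp2d22, Cyp11a1 and Cyp26c1 among them, and 21 did not, 12 of these only in fits without 1 library. Fits without 1 library ran from -0.20 to 1.23 for Cyp2e1, -0.70 to 0.88 for Cyp2f2, -0.11 to 0.71 for Cyp2b10, -0.024 to 0.55 for Cyp2c44, -0.082 to 0.27 for Cyp2c70, -0.15 to 0.22 for Cyp26b1, -0.17 to 0.091 for Cyp27a1 and -0.20 to 0.12 for Cyp4f39. They ran from -0.031 to 0.093 for Cyp1b1, -0.12 to 0.054 for Cyp2j6, -0.12 to 0.040 for Cyp2j9, -0.018 to 0.074 for Cyp2r1, -0.10 to 0.16 for Cyp2s1, -0.038 to 0.18 for Cyp2t4 and -0.040 to 0.097 for Cyp2u1. They ran from -0.0074 to 0.15 for Cyp4b1, -0.0097 to 0.054 for Cyp4f13, -0.022 to 0.17 for Cyp4f17, -0.17 to 0.011 for Cyp4f18 and -0.068 to 0.15 for Cyp7b1. For the 9 that kept their sign they ran from -0.73 to -0.52 for Cyp24a1, 0.083 to 0.16 for Cyp2d22, -0.62 to -0.24 for Cyp11a1, 0.27 to 0.58 for Cyp26c1, 0.015 to 0.45 for Cyp8b1 (0.63 under the block), 0.054 to 0.36 for Cyp4a10 (0.41 under the block), -0.21 to -0.038 for Cyp39a1, -0.092 to -0.0036 for Cyp20a1 and -0.10 to -0.031 for Cyp4f16, and for Cyp46a1 from 0.056 to 0.31. The cause was not tested. With 4 libraries per genotype and totals of 14880239 to 18194889 counts, members near 1 CPM rest on few counts per library, and a difference below their intervals was not detectable.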
